A study of Mus musculus with 15 samples.

Results

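The primitive endoderm genes followed here are 9 genes, *Gata4*, *Gata6*, *Sox7*, *Sox17*, *Foxa2*, *Pdgfra*, *Dab2*, *Cubn* and *Lama1*, taken by symbol from the 23412 genes counted in each of 15 RNA-seq libraries of mouse embryonic stem cells (mESCs). All 9 were listed in every library and all 9 passed the filter on low counts. The study asked how gene expression depends on STAG1 and STAG2, the alternative STAG subunits of cohesin, the ring-shaped complex that holds chromatin loops and sister chromatids. PolyA RNA was sequenced from 5 conditions with 3 replicates each, namely wild-type cells given siGLO or siStag1, *Stag2*-/- cells given siGLO or siStag1, and *Stag1*-/- cells given siGLO.

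Every culture was of the male line v6.5 grown on gelatin. Every culture was also transfected, with 50 nM of either siGLO, a non-targeting transfection control, or siStag1, an siRNA against *Stag1*, and collected 48 h later. Each knockout is 1 CRISPR clone with a deletion. The paper describes both deletions as homozygous, although *Stag2* lies on chromosome X and the line is male. The 3 replicates of a knockout are of the same clone, so the loss of the gene cannot be told apart from other properties of that clone. The siRNA conditions measure acute depletion and the clones long-term loss. Nothing in the labels says that the replicates came from separate cultures. A supplementary legend of the paper calls those of wild type and the knockouts biological replicates, without saying how they were separated. The p-values therefore measure only the spread between these libraries. The libraries held 14982560 to 19070126 counts on genes.

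The primitive endoderm is the extraembryonic layer that separates from the epiblast in the inner cell mass of the blastocyst and later gives rise to the visceral and parietal endoderm of the yolk sacs. FGF signalling through ERK promotes this fate, and GATA6, with GATA4, SOX17 and SOX7 acting after it, installs the program while NANOG opposes it. Cultures of mESCs commonly hold some cells that express these genes alongside the pluripotent majority.

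The targeted genes were examined first. *Stag2* stood at 2324, 2330 and 2324 normalized counts in wild-type siGLO cells and at 662, 738 and 673 in *Stag2*-/- siGLO cells. *Stag1* stood at 2283, 2133 and 2008 in wild-type siGLO cells and at 516, 455 and 352 after siStag1, a 4.86-fold fall. In *Stag2*-/- cells *Stag1* went from 1871, 2199 and 1932 with siGLO to 666, 780 and 628 with siStag1, a 2.90-fold fall. The difference between these falls was 0.75 on the log2 scale (95% confidence interval 0.35 to 1.15, edgeR adjusted p = 0.254). *Stag2* transcripts were called higher in *Stag2*-/- siStag1 (849, 929 and 939) than in *Stag2*-/- siGLO (log2 fold change 0.39, edgeR adjusted p = 0.0808). In *Stag1*-/- siGLO cells *Stag1* stood at 1822, 2364 and 1871, within reach of wild type (log2 fold change -0.085 ± 0.13 SE, edgeR adjusted p = 0.728). The deletion in this clone lies inside the gene and removes only a short stretch of the transcript, so a count over the whole gene does not check the *Stag1*-/- label. The paper reports that this deletion is in frame, that transcript levels were normal and that western blot detected no STAG1 protein. The pluripotency markers of mESCs were abundant as a sum in every condition. Their 9 genes together held 111045 to 115842 normalized counts in the wild-type siGLO libraries, 91873 to 106522 in *Stag1*-/- siGLO, 86936 to 104347 in *Stag2*-/- siGLO and 64898 to 83520 in *Stag2*-/- siStag1. *Tdgf1* made up 19.8 to 23.0% of this sum in wild-type siGLO and 33.4 to 37.5% in *Stag2*-/- siStag1. Against wild-type siGLO, 1 of the 9 was called lower in *Stag1*-/- siGLO, 4 in *Stag2*-/- siGLO and 7 in *Stag2*-/- siStag1. None was called higher, and 9.93%, 14.4% and 21.3% of all genes tested were called lower. In *Stag2*-/- siStag1 *Esrrb* averaged 1860 normalized counts against 11600 and *Klf4* 876 against 3890.

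In wild-type siGLO cells the 9 primitive endoderm genes together took 0.136 to 0.139% of all counts on genes. The share was 0.0239 to 0.0294% in *Stag1*-/- siGLO, 0.0222 to 0.0362% in *Stag2*-/- siGLO, 0.117 to 0.127% in wild-type siStag1 and 0.0203 to 0.0317% in *Stag2*-/- siStag1. *Lama1* made up 61.2 to 63.0% of these counts in wild-type siGLO, 83.4 to 89.3% in *Stag1*-/- siGLO and 63.7 to 70.7% in *Stag2*-/- siGLO. The other 8 genes together had 8741 to 9574 normalized counts in wild-type siGLO, 479 to 876 in *Stag1*-/- siGLO, 1252 to 2271 in *Stag2*-/- siGLO, 7844 to 8343 in wild-type siStag1 and 1487 to 2179 in *Stag2*-/- siStag1. Both knockouts thus held far fewer of these transcripts than wild-type cells, in every library, whereas siStag1 in wild-type cells left the share near the wild-type siGLO level. In bulk RNA, fewer cells of the primitive endoderm type and less RNA per cell cannot be told apart.

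Per kilobase of annotated exon, *Lama1* was the most abundant in wild-type siGLO cells with 1530 ± 39.0 normalized counts per kb (SD, n = 3). It was followed by *Cubn* at 324 ± 17.9, *Dab2* at 246 ± 18.8 and *Gata4* at 238 ± 15.6. *Gata6* came next at 75.0 ± 9.16, then *Sox17* at 54.9 ± 0.985, *Pdgfra* at 53.9 ± 2.88, *Sox7* at 52.4 ± 9.22 and *Foxa2* at 34.0 ± 2.85. The libraries of *Dab2* and *Gata4* overlapped, as did those of *Sox17*, *Pdgfra* and *Sox7*, and every other pair of neighbours in this order was separated.

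All 9 genes were lower in *Stag1*-/- siGLO cells than in wild-type siGLO cells, where 9.93% of the 14508 genes tested were called lower, and all 9 were lower in *Stag2*-/- siGLO cells, where 14.4% were. A gene was called differentially expressed when the adjusted p of edgeR's two-sided quasi-likelihood test was under 0.1. The median log2 fold change of the 9 was -3.45 in *Stag1*-/- cells, from -4.48 to -1.89, and -2.33 in *Stag2*-/- cells, from -2.72 to -2.09, against medians of -0.013 and 0.00701 over all genes tested. At each of the 9 genes the 3 libraries of either knockout lay below the 3 wild-type siGLO libraries, which was so for 15.9% of all genes tested in *Stag1*-/- and for 18.5% in *Stag2*-/-. Both comparisons use the same wild-type siGLO libraries, so their values are set side by side and are not independent. Same-numbered libraries deviated together in most comparisons, and with the replicate numbers added to the fit as a block all 9 were again called lower in both knockouts, while the genes called in either direction in *Stag1*-/- went from 2907 to 4443 of the 14508.

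**Figure D1:**
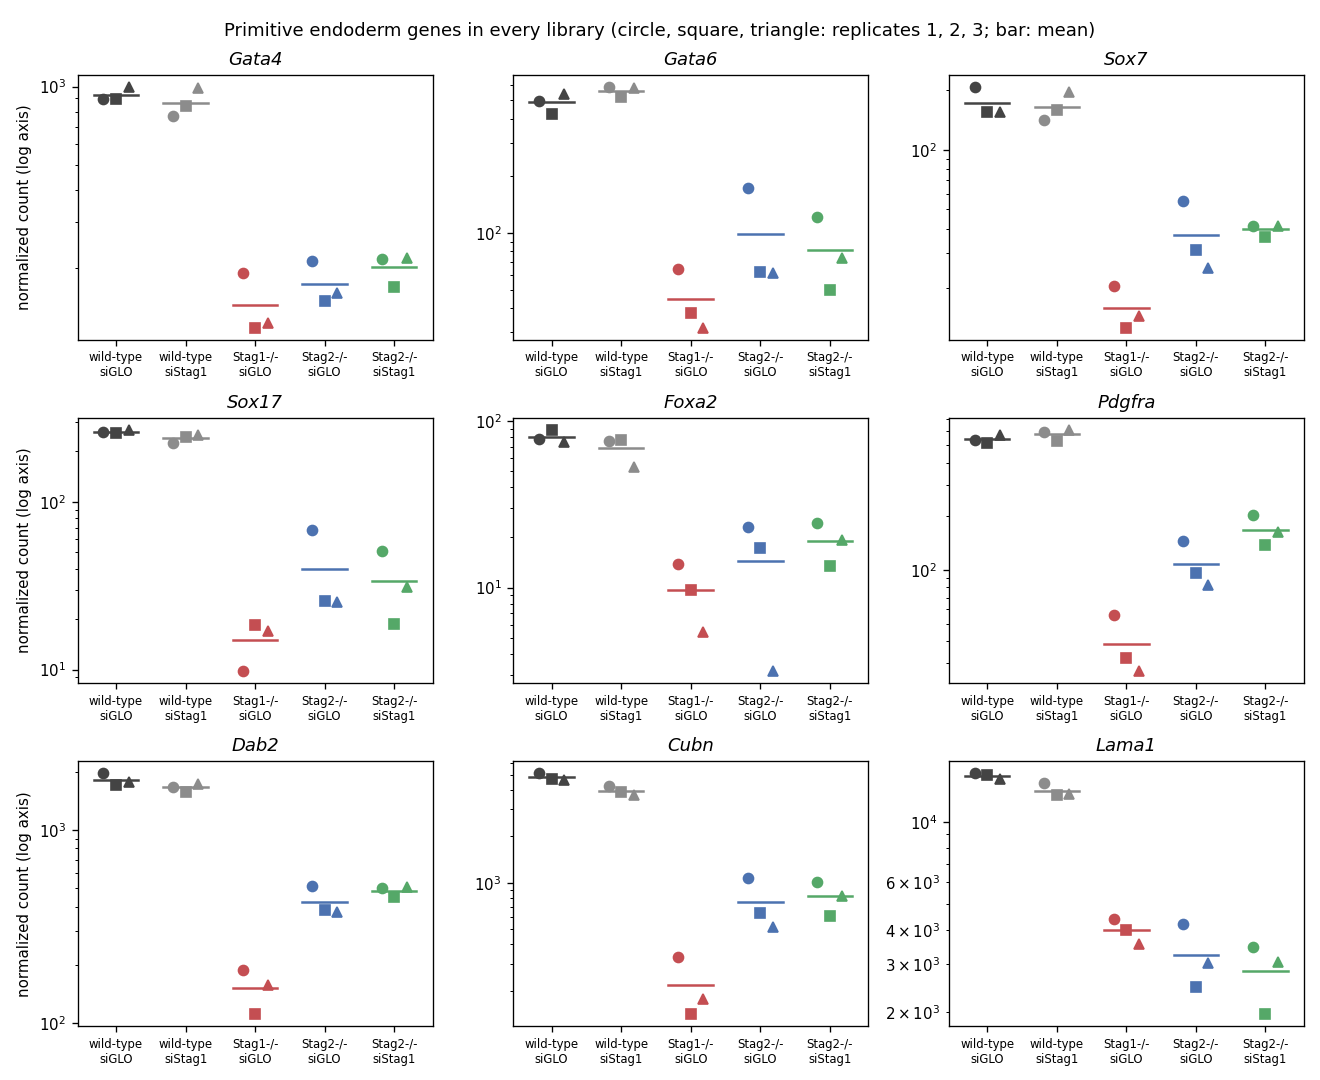
Normalized counts (log axis, with its own range in each panel) of the 9 primitive endoderm genes in each of the 15 libraries, with replicates 1, 2 and 3 as circle, square and triangle and the mean of each condition as a bar. Both wild-type conditions sit at the top of every panel, and the *Stag1*-/- siGLO, *Stag2*-/- siGLO and *Stag2*-/- siStag1 libraries all sit below the wild-type siGLO libraries.

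The GATA factors head the primitive endoderm program. *Gata6* (chromosome 18) encodes the zinc-finger factor that specifies the lineage. *Gata6* had 495, 425 and 544 normalized counts in wild-type siGLO, 65, 38 and 32 in *Stag1*-/- siGLO and 173, 62 and 61 in *Stag2*-/- siGLO. The first *Stag2*-/- library was thus well above the other 2, yet below every wild-type siGLO library. The log2 fold change of *Gata6* was -3.45 ± 0.38 (SE; edgeR adjusted p = 1.67e-05) in *Stag1*-/- and -2.30 ± 0.35 (edgeR adjusted p = 0.00028) in *Stag2*-/-, a fall of 10.9-fold and 4.93-fold.

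*Gata4*, which acts beside GATA6 and is kept on in extraembryonic endoderm, lies at chr14:63198922-63271692. Its normalized counts were 892, 893 and 998 in wild-type siGLO, 191, 117 and 122 in *Stag1*-/- siGLO and 211, 149 and 159 in *Stag2*-/- siGLO. The knockouts overlapped each other and neither overlapped wild type. *Gata4* fell by 2.70 ± 0.18 on the log2 scale in *Stag1*-/- (edgeR adjusted p = 1.89e-07) and by 2.42 ± 0.18 in *Stag2*-/- (edgeR adjusted p = 9.21e-07).

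*Sox17* and *Sox7* encode SOXF factors, which act after GATA6 in forming the primitive endoderm. *Sox17* (chr1:4490931-4497354) had 260, 259 and 268 normalized counts in wild-type siGLO, 10, 18 and 17 in *Stag1*-/- siGLO and 68, 26 and 25 in *Stag2*-/- siGLO. *Sox7* (chr14:63943673-63950732) had 208, 155 and 156 in wild-type siGLO, 21, 13 and 14 in *Stag1*-/- siGLO and 55, 31 and 25 in *Stag2*-/- siGLO. For both genes the 3 conditions formed 3 separate ranges, with *Stag1*-/- the lowest. *Sox17* had a log2 fold change of -4.10 ± 0.37 in *Stag1*-/- (edgeR adjusted p = 2.67e-06), which left 5.77% of the wild-type siGLO mean, and -2.72 ± 0.33 in *Stag2*-/- (edgeR adjusted p = 4.5e-05), which left 15.1%. For *Sox7* it was -3.44 ± 0.29 (edgeR adjusted p = 1.19e-06) and -2.22 ± 0.26 (edgeR adjusted p = 3.4e-05). *Sox7* and *Gata4* are neighbours on chromosome 14, 672 kb apart, and no other 2 of the 9 genes lie within 1 Mb of each other.

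*Foxa2* (chr2:148042877-148046969) encodes a forkhead pioneer factor of the visceral endoderm and also marks definitive endoderm and floor plate. It was the least abundant of the 9 genes in wild-type siGLO cells. It had 78, 88 and 75 normalized counts in wild-type siGLO, 14, 10 and 5 in *Stag1*-/- siGLO and 23, 17 and 3 in *Stag2*-/- siGLO. The lowest of these libraries, *Stag2*-/- siGLO replicate 3, held 3 raw counts of *Foxa2*, the smallest level taken as detectable here. The log2 fold change was -3.06 ± 0.45 (edgeR adjusted p = 0.000248) in *Stag1*-/- and -2.46 ± 0.43 (edgeR adjusted p = 0.000914) in *Stag2*-/-, with the widest errors of the 9 genes.

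*Pdgfra* (chr5:75152292-75198215) encodes the PDGF receptor alpha, a surface receptor tyrosine kinase that marks primitive endoderm precursors. *Pdgfra* had 537, 512 and 570 normalized counts in wild-type siGLO, 56, 32 and 27 in *Stag1*-/- siGLO and 145, 96 and 82 in *Stag2*-/- siGLO. The ranges of the 3 conditions were separate. *Pdgfra* fell by 3.82 ± 0.24 on the log2 scale in *Stag1*-/- (edgeR adjusted p = 1.32e-07) and by 2.33 ± 0.22 in *Stag2*-/- (edgeR adjusted p = 4.65e-06). Of the PDGF ligands, *Pdgfa* was also lower in both knockouts, at 628 normalized counts on average in wild-type siGLO, 395 in *Stag1*-/- (edgeR adjusted p = 0.0101) and 423 in *Stag2*-/- (edgeR adjusted p = 0.0189). *Pdgfb* rose in *Stag1*-/- cells from 144 to 305 (edgeR adjusted p = 0.00611) and *Pdgfc* from 499 to 1020 (edgeR adjusted p = 0.0785), while the low *Pdgfd* rose in both knockouts, from 1.27 to 5.63 and 9.19 (edgeR adjusted p = 0.0985 and 0.0168). The receptor gene *Pdgfrb* fell in *Stag2*-/- from 87.3 to 49.5 (edgeR adjusted p = 0.0933) and was not called in *Stag1*-/-, at 119 (edgeR adjusted p = 0.382).

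*Dab2* and *Cubn* serve endocytosis, a main activity of the visceral endoderm. *Dab2* (chr15:6299788-6440712) encodes a clathrin adaptor that sorts receptors for uptake, and *Cubn* (chr2:13276338-13491813) encodes cubilin, a large receptor for vitamin B12 with intrinsic factor, albumin and other ligands. *Dab2* had 1961, 1697 and 1757 normalized counts in wild-type siGLO, 188, 111 and 157 in *Stag1*-/- siGLO and 512, 384 and 375 in *Stag2*-/- siGLO. *Cubn* had 5142, 4711 and 4651 in wild-type siGLO, 333, 141 and 178 in *Stag1*-/- siGLO and 1084, 640 and 520 in *Stag2*-/- siGLO. At both genes the *Stag1*-/- libraries were the lowest, the *Stag2*-/- libraries intermediate and the wild-type siGLO libraries the highest, with no overlap.

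*Dab2* fell by 3.57 ± 0.16 on the log2 scale in *Stag1*-/- (edgeR adjusted p = 2.16e-09), the smallest p of all 14508 genes in that comparison, and by 2.09 ± 0.15 in *Stag2*-/- (edgeR adjusted p = 4.48e-07). *Cubn* showed the deepest fall of the 9 genes in *Stag1*-/- cells, 22.3-fold (log2 fold change -4.48 ± 0.30, edgeR adjusted p = 1.86e-07), against 6.46-fold in *Stag2*-/- (log2 fold change -2.69 ± 0.27, edgeR adjusted p = 9.29e-06). *Amn*, which encodes amnionless, the membrane partner that carries cubilin to the cell surface, fell alongside from 316 normalized counts on average to 78.4 in *Stag1*-/- (edgeR adjusted p = 1.2e-06) and 76.4 in *Stag2*-/- (edgeR adjusted p = 1.75e-06). Of 8 further partners in this uptake pathway, *Amn* included, 2 were lower in *Stag1*-/- and 3 in *Stag2*-/-, and none was called higher. With the replicate block 5 were lower and 2 higher in *Stag1*-/-. The other one lower in both was *Lrpap1*, the chaperone of this receptor family, at 2430 normalized counts in wild-type siGLO, 1650 in *Stag1*-/- (edgeR adjusted p = 0.000806) and 1390 in *Stag2*-/- (edgeR adjusted p = 3.4e-05). *Lrp2*, which encodes megalin, the co-receptor of cubilin, stood at 4780, 3350 and 5060 and was not called against wild type in either (edgeR adjusted p = 0.124 and 0.822), but was called lower in *Stag1*-/- with the block (-0.52, edgeR adjusted p = 0.0645).

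The stretch of 250 bases before the transcription start is shown for *Dab2*, *Cubn* and *Pdgfra*, the receptors and the adaptor that separate the knockouts most clearly, so that the start regions of genes that fell together can be compared. The sequences are from RefSeq on GRCm38.p6, read 5′ to 3′ on the strand of the gene, and capitals mark a GATA motif. Promoters of 4 of the 9 genes were in the table used, with 3 windows for *Foxa2*, 2 for *Dab2* and 1 each for *Cubn* and *Pdgfra*. For *Dab2* the upstream window, which ends at the start of the annotated gene, is shown. The motif was searched on both strands as NGATAN with A or T as its first and A or G as its last letter, and 26.5% of all 32851 promoter windows of this length hold at least 1.
*Dab2*, chr15:6299539-6299788, plus strand: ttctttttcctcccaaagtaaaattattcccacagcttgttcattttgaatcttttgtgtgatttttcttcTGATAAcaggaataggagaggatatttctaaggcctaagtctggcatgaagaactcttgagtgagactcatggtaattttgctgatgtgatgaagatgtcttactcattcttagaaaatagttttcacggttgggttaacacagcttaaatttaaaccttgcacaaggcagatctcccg
*Cubn*, chr2:13491877-13492126, minus strand: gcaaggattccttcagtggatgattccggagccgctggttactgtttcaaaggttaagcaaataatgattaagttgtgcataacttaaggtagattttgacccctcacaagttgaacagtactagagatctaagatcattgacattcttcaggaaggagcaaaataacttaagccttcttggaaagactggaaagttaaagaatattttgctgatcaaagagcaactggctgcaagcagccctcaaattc
*Pdgfra*, chr5:75152001-75152250, plus strand: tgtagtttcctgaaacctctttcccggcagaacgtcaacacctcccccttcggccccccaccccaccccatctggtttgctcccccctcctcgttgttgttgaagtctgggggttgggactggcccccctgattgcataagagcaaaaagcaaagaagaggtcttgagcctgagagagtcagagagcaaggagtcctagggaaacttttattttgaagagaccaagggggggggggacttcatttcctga
The *Dab2* window shown holds 1 such motif, TGATAA, 179 bases before the start, and the *Cubn* and *Pdgfra* windows hold none. The other *Dab2* window, chr15:6386498-6386747, holds none, and of the 3 *Foxa2* windows 1 holds a motif. The *Dab2* window shown has 36.8% GC and the other 60.0%, the *Cubn* window 39.6% and the *Pdgfra* window 54.4%.

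*Lama1* (chr17:67697259-67822647) encodes the laminin alpha 1 chain, a basement membrane protein made in bulk by the primitive and parietal endoderm. It had 15101, 14883 and 14366 normalized counts in wild-type siGLO, 4397, 4004 and 3558 in *Stag1*-/- siGLO and 4208, 2471 and 3017 in *Stag2*-/- siGLO. It kept the largest share of the wild-type siGLO level in *Stag1*-/- cells, 27.0%, where the next highest of the 9 genes, *Gata4*, kept 15.4%. The log2 fold change was -1.89 ± 0.19 in *Stag1*-/- (edgeR adjusted p = 7.31e-06) and -2.19 ± 0.19 in *Stag2*-/- (edgeR adjusted p = 2.37e-06). A ratio of raw counts within a library does not depend on normalization. *Lama1* over *Cubn* was 2.94, 3.16 and 3.09 in wild-type siGLO, 13.2, 28.4 and 20.0 in *Stag1*-/- siGLO and 3.88, 3.86 and 5.80 in *Stag2*-/- siGLO. The 9 genes therefore did not fall in proportion in *Stag1*-/- cells, where *Lama1* retained more of its RNA than *Cubn* in every library.

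**Figure D2:**
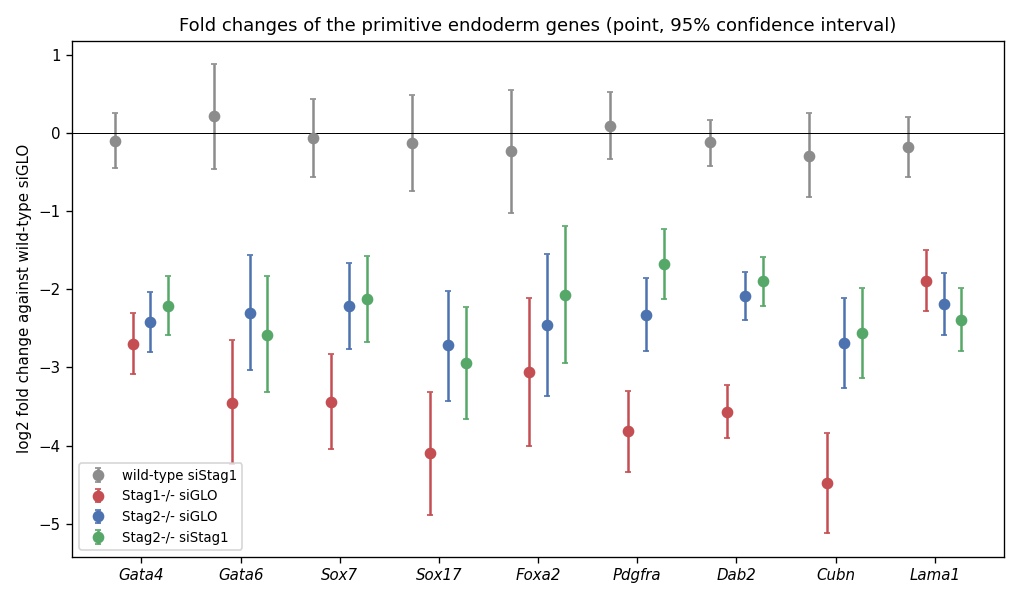
Log2 fold change of each of the 9 genes against wild-type siGLO (y axis) in 4 conditions, as edgeR estimates with 95% confidence intervals. The wild-type siStag1 intervals include 0 for all 9 genes, the *Stag2*-/- siGLO estimates lie between -2.72 and -2.09, and the *Stag1*-/- siGLO estimates spread from -4.48 to -1.89.

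Acute depletion of STAG1 in wild-type cells gave no called change among the 9 genes, in a comparison in which 0.248% of all genes tested were called in either direction. With the replicate block none of the 9 was called either, while the genes called went from 36 to 236. None of the 9 had an unadjusted p under 0.05 by edgeR, and DESeq2 called 0. *Gata6* had 590, 522 and 580 normalized counts in wild-type siStag1, *Gata4* 770, 842 and 987, *Sox17* 224, 244 and 250, and *Sox7* 142, 159 and 195. *Foxa2* had 76, 77 and 53, *Pdgfra* 590, 528 and 609, and *Dab2* 1670, 1570 and 1728. *Cubn* had 4281, 3903 and 3705 and *Lama1* 13859, 12573 and 12677. For 6 of the 9 genes these ranges overlapped those of wild-type siGLO. The exceptions were *Sox17*, *Cubn* and *Lama1*, whose 3 siStag1 libraries lay below the 3 siGLO libraries, which was so for 8.0% of all genes tested.

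The estimates ranged from -0.29 for *Cubn* to 0.21 for *Gata6* on the log2 scale (all edgeR adjusted p = 0.999), and their 95% confidence intervals ran from -1.02 to 0.88 over the 9 genes. The interval of *Cubn* was -0.82 to 0.25 and that of *Dab2* -0.42 to 0.17, so falls of the size seen in either clone lay outside them. The clone and the acute depletion were also compared directly, a comparison added after the values had been seen. All 9 genes were lower in *Stag1*-/- siGLO than in wild-type siStag1 cells, where 7.82% of all genes tested were called lower. The median log2 fold change of the 9 was -3.45, and the adjusted p was 0.000677 or less. Clone, duration of loss and residual *Stag1* mRNA after siStag1 cannot be told apart in this comparison.

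The *Stag2*-/- clone was also given siStag1, where the fall of *Stag1* was 2.90-fold as given above. All 9 were again lower in *Stag2*-/- siStag1 than in wild-type siGLO, in a comparison where 21.3% of all genes tested were called lower, with a median log2 fold change of -2.21 and a range from -2.95 for *Sox17* to -1.68 for *Pdgfra* (edgeR adjusted p of 0.00106 or less). *Gata4* had 216, 168 and 218 normalized counts in these cells, *Gata6* 121, 50 and 74, *Sox7* 41, 36 and 41, and *Sox17* 51, 19 and 31. *Foxa2* had 25, 13 and 19, *Pdgfra* 202, 138 and 164, and *Dab2* 500, 451 and 503. *Cubn* had 1023, 612 and 826 and *Lama1* 3451, 1956 and 3046. At all 9 genes the 3 libraries lay below the wild-type siGLO libraries, as for 23.3% of all genes tested, and at all 9 they overlapped the *Stag2*-/- siGLO libraries.

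Against *Stag2*-/- siGLO, edgeR called none of the 9 genes at an adjusted p under 0.1, where 6.37% of all genes tested were called in either direction. With the replicate block 2049 genes were called in place of 924, among them *Pdgfra* (0.65, edgeR adjusted p = 0.0296). *Pdgfra* was higher with siStag1 in all 3 same-numbered pairs, at 202 against 145, 138 against 96 and 164 against 82 normalized counts. In the fit without the block only *Pdgfra* had an unadjusted p under 0.05, and DESeq2 called the same gene. *Pdgfra* differed by 0.64 ± 0.22 on the log2 scale (edgeR adjusted p = 0.137), and it was called with DESeq2 (adjusted p = 0.0596) and without *Stag2*-/- siGLO replicate 1 (0.92, edgeR adjusted p = 0.031). The other 8 estimates ran from -0.28 for *Gata6* to 0.39 for *Foxa2*. The difference between the siStag1 effects in *Stag2*-/- and in wild-type cells was called for none of the 9 genes with or without the block, with 0.159% of all genes tested called, no unadjusted p under 0.05 and none called by DESeq2. Its intervals were wide, from -1.51 to 1.90 over the 9 genes.

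The knockouts were then set directly against each other. Of the 9 genes, 6 were lower in *Stag1*-/- siGLO than in *Stag2*-/- siGLO cells, where 12.9% of all genes tested were called lower and 12.7% higher. These were *Cubn* (log2 fold change -1.79 ± 0.28, edgeR adjusted p = 0.000466), *Pdgfra* (-1.49 ± 0.25, edgeR adjusted p = 0.0008), *Dab2* (-1.48 ± 0.16, edgeR adjusted p = 1.6e-05), *Sox17* (-1.38 ± 0.41, edgeR adjusted p = 0.0277), *Sox7* (-1.22 ± 0.31, edgeR adjusted p = 0.0119) and *Gata6* (-1.15 ± 0.39, edgeR adjusted p = 0.0517). At *Sox7*, *Sox17*, *Pdgfra*, *Dab2* and *Cubn* the *Stag1*-/- libraries all lay below the *Stag2*-/- libraries, as for 15.3% of all genes tested. *Gata4* (-0.28, 95% confidence interval -0.68 to 0.12), *Foxa2* (-0.60, -1.68 to 0.48) and *Lama1* (0.30, -0.082 to 0.69) were not called, and their libraries overlapped. With the replicate block, under which the genes called went from 3722 to 5416, *Lama1* was called higher in *Stag1*-/- (0.33, edgeR adjusted p = 0.0745), beside the same 6 lower genes.

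This difference depended in part on *Stag2*-/- siGLO replicate 1, which was the highest of its group at all 9 genes, whereas it was the highest at 39.6% of all genes tested. Without it the log2 fold change of *Gata6* was -0.47 (edgeR adjusted p = 0.368) and that of *Sox17* -0.74 (edgeR adjusted p = 0.187), and neither was called. *Lama1* was then called higher in *Stag1*-/- (0.54, edgeR adjusted p = 0.0371), while *Cubn*, *Pdgfra*, *Dab2* and *Sox7* were called lower with and without it. *Gata6* was also not called without *Stag1*-/- replicate 2 (-1.04, edgeR adjusted p = 0.158) or replicate 3 (-0.94, edgeR adjusted p = 0.157), and *Sox17* without *Stag1*-/- replicate 1 (-1.15, edgeR adjusted p = 0.102). *Gata4* was called without *Stag1*-/- replicate 1 (-0.54, edgeR adjusted p = 0.0562), and *Foxa2* without *Stag2*-/- replicate 3 (-1.07, edgeR adjusted p = 0.0881).

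**Figure D3:**
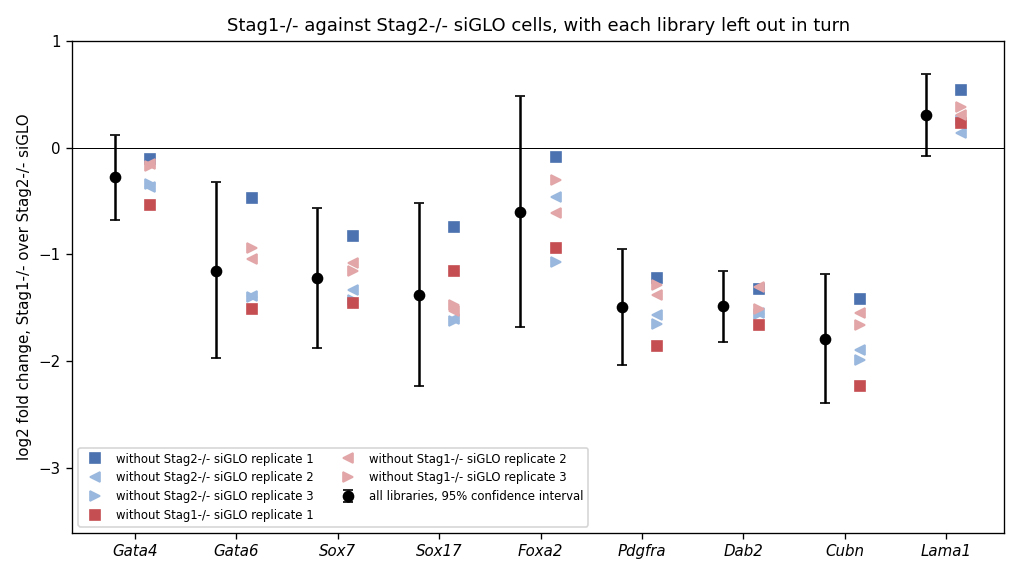
Log2 fold change of the 9 genes in *Stag1*-/- over *Stag2*-/- siGLO cells (y axis), with all libraries as the black point and 95% confidence interval, and with each library of these conditions left out as coloured symbols. No gene changes sign in any setting. *Cubn*, *Dab2*, *Pdgfra* and *Sox7* were called lower in every setting shown, and *Gata6* moves from -1.15 to -0.47 without *Stag2*-/- siGLO replicate 1.

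The median spread between replicates was itself larger in the clones. The median coefficient of variation of the 9 genes was 6.56% in wild-type siGLO and 7.38% in wild-type siStag1, but 30.7% in *Stag1*-/- siGLO, 39.7% in *Stag2*-/- siGLO and 25.0% in *Stag2*-/- siStag1. In *Stag2*-/- siStag1 it was smaller than in wild-type siGLO for *Sox7* (7.3% against 17.6%) and *Dab2* (6.04% against 7.66%). The lower counts in the clones carry more counting error, whose part in this spread was not tested. The 9 genes tended to be high or low together in the libraries of a clone. *Stag1*-/- siGLO replicate 1 was the highest of its group at 8 of the 9 genes, the exception being *Sox17*, against 36.4% of all genes tested. *Stag2*-/- siStag1 replicate 2 was the lowest at all 9, against 25.2% of all genes tested.

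Across all 15 libraries the genes whose profile was most like that of *Gata6*, by Pearson correlation of log2 CPM, were *Hs3st1* (r = 0.993), *Habp2* (0.980) and *Glipr1* (0.974). Those most like *Sox17* were *Nxf7* (0.983), *Hs3st1* (0.976) and *Enpep* (0.975). *Hs3st1* encodes a heparan sulfate sulfotransferase and *Enpep* a membrane aminopeptidase. *Hs3st1* averaged 175 normalized counts in wild-type siGLO, 16.6 in *Stag1*-/- siGLO, 36.4 in *Stag2*-/- siGLO, 179 in wild-type siStag1 and 36.1 in *Stag2*-/- siStag1. Among the 36 pairs of the 9 genes r ran from 0.790 to 0.994 with a median of 0.944. These values describe the libraries only, since most of the spread lies between the wild-type conditions and the clones.

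A wider list of 26 other primitive and visceral endoderm genes held 20 that could be tested. Of these, 12 were lower and 1 higher in *Stag1*-/- siGLO, 12 were lower and 1 higher in *Stag2*-/- siGLO, and 9 were lower in both. Of all genes tested 10.1% were called higher in *Stag1*-/- and 13.9% in *Stag2*-/-. The median log2 fold change was -1.28 and -0.89. *Hnf4a*, a nuclear receptor of the visceral endoderm, averaged 73.4 normalized counts in wild-type siGLO, 1.96 in *Stag1*-/- (log2 fold change -5.17 ± 0.62, edgeR adjusted p = 4.59e-05) and 12.0 in *Stag2*-/- (-2.60 ± 0.48, edgeR adjusted p = 0.00152). *Dkk1*, a WNT antagonist made by the anterior visceral endoderm, averaged 68.6 in wild-type siGLO, 8.69 in *Stag1*-/- (edgeR adjusted p = 0.000883) and 8.44 in *Stag2*-/- siStag1 (edgeR adjusted p = 0.000284). *Ihh*, a hedgehog ligand of the visceral endoderm, averaged 23.2 in wild-type siGLO, 2.29 in *Stag1*-/- and 7.10 in *Stag2*-/- (edgeR adjusted p = 0.0125 and 0.0952).

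The exceptions were *Foxa3*, a forkhead relative of *Foxa2*, which rose in *Stag1*-/- from 27.8 to 60.1 (edgeR adjusted p = 0.00573), and *Apoa2*, an apolipoprotein, which rose in *Stag2*-/- from 137 to 227 (edgeR adjusted p = 0.0674). In *Stag2*-/- siStag1 cells 12 of the 20 were lower and 3 higher (22.6% of all genes tested were called higher), the latter *Foxa1* (log2 fold change 1.90), *Apob* (0.77) and *Foxa3* (0.68). None was called in wild-type siStag1. The later products of visceral endoderm were scarcely detected in any condition. *Afp*, alpha-fetoprotein, had at most 5 raw counts in a library, *Ttr*, transthyretin, at most 12, *Apoa1* at most 21, *Gata5* at most 6 and *Cer1* at most 4, and none of these passed the filter.

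The list of 20 parietal endoderm and basement membrane genes could be tested in full. It had 12 lower and 3 higher genes in *Stag1*-/- siGLO and 14 lower and 2 higher in *Stag2*-/- siGLO, with medians of -0.93 and -0.98. The collagen IV chains, which assemble with laminin in the basement membrane, fell in both. *Col4a1* went from 13600 normalized counts on average to 2000 in *Stag1*-/- (edgeR adjusted p = 3.86e-07) and 2180 in *Stag2*-/- (edgeR adjusted p = 1.12e-06), and *Col4a2* from 7210 to 1410 (edgeR adjusted p = 1.08e-05) and 1100 (edgeR adjusted p = 3.21e-06). *Srgn*, the proteoglycan serglycin, went from 556 to 27.8 (edgeR adjusted p = 3.34e-07) and 106 (edgeR adjusted p = 2.26e-05), and *Pth1r*, the receptor for the parathyroid hormone-related signal that promotes parietal endoderm, from 448 to 71.4 (edgeR adjusted p = 1.43e-06) and 168 (edgeR adjusted p = 0.000251).

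Some genes of this list moved the other way. The keratin genes *Krt8*, *Krt18* and *Krt19*, which encode filaments of simple epithelia at large, were higher in *Stag1*-/- (log2 fold changes 1.39, 1.68 and 1.77) and lower in *Stag2*-/- siStag1 (-0.96, -0.71 and -0.84). In *Stag2*-/- siGLO they were called lower only with the replicate block (-0.73, -0.33 and -0.66), which brought the lower genes there to 17. *Vim*, the mesenchymal filament vimentin, was lower in *Stag1*-/- (-1.04) and higher in *Stag2*-/- (0.71), and *Fst*, the activin antagonist follistatin, likewise (-1.65 and 0.90). In *Stag2*-/- siStag1 cells 17 of the 20 were lower and 1, *Vim*, was higher. None was called in wild-type siStag1, or 1 with the block, *Nid1* (-0.40, edgeR adjusted p = 0.0775).

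**Figure D4:**
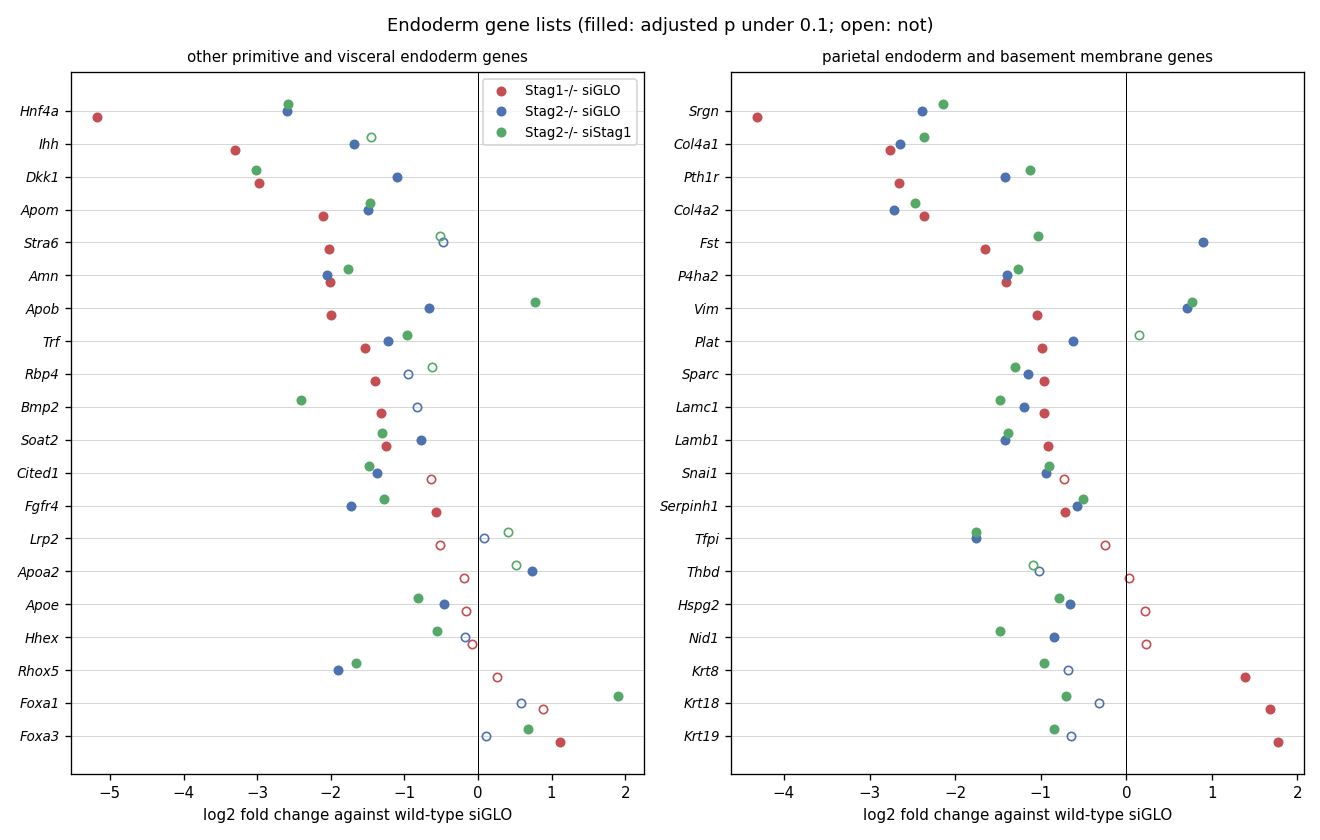
Log2 fold change against wild-type siGLO (x axis) of the tested genes of the other primitive and visceral endoderm list (left) and of the parietal endoderm and basement membrane list (right) in both knockouts with siGLO and in *Stag2*-/- cells with siStag1, ordered by the value in *Stag1*-/-. Filled points passed an adjusted p of 0.1. *Hnf4a*, *Srgn* and *Col4a1* lie far to the left in all 3 conditions, whereas the keratin genes lie right of 0 only in *Stag1*-/-.

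The genes that feed into or oppose the program were read from separate lists. Of 15 FGF-ERK genes, 1 was lower and 5 higher in *Stag1*-/- siGLO, and 1 lower and 3 higher in *Stag2*-/- siGLO. With the replicate block, under which the genes called in *Stag2*-/- went from 4110 to 5723 of all tested, the counts there were 2 lower and 6 higher, the latter including *Fgfr2* (0.38, edgeR adjusted p = 0.0565). *Fgf4*, the FGF ligand that mESCs secrete, averaged 5840 normalized counts in wild-type siGLO, 4380 in *Stag1*-/- (log2 fold change -0.42, edgeR adjusted p = 0.0277), 3230 in *Stag2*-/- (-0.85, edgeR adjusted p = 0.000155) and 1510 in *Stag2*-/- siStag1 (-1.95, edgeR adjusted p = 1.73e-08). *Fgfr2*, an FGF receptor of the primitive endoderm, was higher in *Stag1*-/- (1.60, edgeR adjusted p = 1.6e-05) and in *Stag2*-/- siStag1 (1.78, edgeR adjusted p = 1.25e-06). *Fgf5*, a marker of the later epiblast, was higher in *Stag2*-/- (3.25, edgeR adjusted p = 3.51e-05), from 9.72 to 93.3 normalized counts. *Dusp6* and *Spry2*, feedback targets of ERK signalling, were also higher in both knockouts, *Dusp6* by 0.66 and 0.42 and *Spry2* by 0.61 and 0.67 on the log2 scale. In wild-type siStag1 no gene of this list was called, or with the block these same 2 (0.46 and 0.40, edgeR adjusted p = 0.0348 and 0.0477).

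Of 10 epiblast factors that oppose GATA6 or maintain naive pluripotency, 3 were lower in *Stag1*-/- siGLO and none was called higher, 6 were lower and 2 higher in *Stag2*-/- siGLO, and 9 were lower and 1 higher in *Stag2*-/- siStag1. *Tbx3*, a T-box factor of naive cells that has also been tied to extraembryonic endoderm, averaged 2140 normalized counts in wild-type siGLO, 401 in *Stag1*-/- (edgeR adjusted p = 2.68e-08) and 881 in *Stag2*-/- (edgeR adjusted p = 7.37e-06). *Prdm14*, a repressor of extraembryonic endoderm genes, averaged 442, 209 and 172 (edgeR adjusted p = 0.00493 and 0.000818) and 27.5 in *Stag2*-/- siStag1 (edgeR adjusted p = 5.04e-08). *Tbx3* and *Tfcp2l1* were also lower in wild-type siStag1 (-0.87 and -0.71), as were *Klf2* (-0.61) and *Prdm14* (-0.95) with the block, where none of the 9 primitive endoderm genes was called. Of all genes tested, 0.248% were called in either direction in wild-type siStag1 without the block. Against *Stag2*-/- siGLO, siStag1 lowered 9 of these 10 epiblast factors, where 6.37% of all genes tested were called in either direction. None of the 9 primitive endoderm genes was called, which is close to that share. Their confidence intervals ran from -1.06 to 1.39 on the log2 scale, and *Pdgfra* was called higher with the replicate block and with DESeq2. The difference between these lists was not tested.

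The 9 genes are also used by other tissues, so markers of those were summed. Other GATA and SOXF family genes and GATA cofactors were low, 378 to 507 normalized counts for 7 genes together in wild-type siGLO, with no gene called lower in *Stag1*-/-, and 2 of 6 tested, *Gata2* and *Zfpm1*, called lower in *Stag2*-/-. *Zfpm2*, a cofactor of GATA4, was 2.82-fold higher in *Stag1*-/- and 2.84-fold higher in *Stag2*-/- (edgeR adjusted p = 0.0875 and 0.0694). The 9 definitive endoderm and mesendoderm markers summed to 1565 to 2797 normalized counts in wild-type siGLO, 3090 to 3929 in *Stag1*-/- siGLO and 8982 to 15023 in *Stag2*-/- siGLO. *Trh*, which encodes the thyrotropin-releasing hormone precursor, made up 75.5 to 98.0% of these sums, and the other 8 markers together held 248 to 383, 240 to 304 and 237 to 527. *Trh* (log2 fold change 0.90) rose and *Cxcr4* (-1.35) fell in *Stag1*-/-. *Trh* (2.72) and *T*, brachyury (3.80), rose and *Eomes* (-0.87) fell in *Stag2*-/-. *Cer1* was at 0 in the wild-type siGLO libraries. The 8 cardiac mesoderm markers summed to 110 to 190 normalized counts in wild-type siGLO, 201 to 335 in *Stag1*-/- and 180 to 198 in *Stag2*-/-, with *Hand1* (2.17) higher in the first clone and *Mef2c* (2.13) in the other. The 12 fibroblast markers summed to 676 to 1017, 1198 to 1623 and 966 to 2223, with *Lum* and *Dcn* at 0 in wild-type siGLO. Of these sums *Acta2*, smooth muscle actin, held 125 to 222, 561 to 799 and 178 to 1336, and the other 11 markers 550 to 795, 637 to 824 and 743 to 887. In *Stag1*-/- *Acta2* was called higher (edgeR adjusted p = 0.0900) and *Cd44* lower (edgeR adjusted p = 0.0375), and in *Stag2*-/- *Col3a1* (2.10, edgeR adjusted p = 0.0918) and *Fbn1* (0.63, edgeR adjusted p = 0.0655) were called higher.

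The 6 endothelial markers summed to 1628 to 1710 normalized counts in wild-type siGLO, 1369 to 1547 in *Stag1*-/- and 856 to 1471 in *Stag2*-/-, with *Cdh5* (-1.88) lower in *Stag1*-/-, *Pecam1* (-0.70) lower in *Stag2*-/- and *Emcn* at 0 in every library. *Pecam1* alone made up 75.2 to 86.6% of these sums, and the other 5 held 217 to 310, 306 to 383 and 190 to 277. The 7 floor plate markers summed to 1281 to 1707, 901 to 1030 and 1528 to 2082, with *Shh* at 0 in wild-type siGLO, and *Ntn1* made up 85.5 to 95.8% of them. *Ntn1* (-0.71) was lower in *Stag1*-/- and *Foxj1* (-1.10) in *Stag2*-/-. The 6 paraxial mesoderm markers summed to 1051 to 1444, 979 to 1490 and 754 to 1156, with *Msgn1* at 0 in wild-type siGLO, and *Tcf15* made up 88.1 to 96.5% of them. *Tcf15* (-0.54) was lower and *Foxc1* (1.09) higher in *Stag2*-/-. In none of these lists was a gene called lower in both knockouts, except *Pecam1* with the replicate block (-0.34 and -0.73).

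The floor plate markers of *Stag2*-/- siStag1 cells, where the 9 genes were also lower, summed to 324 to 451 normalized counts, with *Ntn1* (log2 fold change -2.28, as for the values in parentheses that follow) and *Foxj1* (-1.34) lower and *Foxa1* higher. In the same cells the endothelial markers summed to 710 to 1127, with *Kdr* (-2.05), *Pecam1* (-0.90) and *Tek* (-0.47) lower, and the paraxial mesoderm markers to 482 to 679, with *Meox1* (-2.87) and *Tcf15* (-1.22) lower. These 3 sums lay below their ranges in wild-type siGLO. The mesendoderm markers summed to 5917 to 8657, with *Trh* (2.05) and *T* (2.02) higher and *Eomes* (-1.44) lower. The cardiac markers summed to 180 to 294, with *Mef2c* (3.30) and *Myh6* (0.81) higher and *Nkx2-5* (-1.12) lower. The fibroblast markers summed to 980 to 1711, with *Col3a1* (1.98), *Fbn1* (1.35) and *Twist1* (1.04) higher. The 7 GATA and SOXF relatives summed to 310 to 340, also below their wild-type siGLO range of 378 to 507, with *Gata2* (-1.11) and *Zfpm1* (-0.59) lower and *Zfpm2* (1.48) higher. The part of these cell types in the levels of the 9 genes was not tested.

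The genes around the 9 were examined last. Within 1 Mb, 62 other genes were tested, of which 7 (11.3%) were lower in *Stag1*-/- siGLO and 6 (9.68%) in *Stag2*-/- siGLO, against 9.93% and 14.4% of all genes tested. In *Stag2*-/- siStag1 16 of them (25.8%) were lower, against 21.3% of all genes. Those called higher were 2, 5 and 14, in the same order. *Egflam*, a matrix protein gene beside *Dab2*, was lower in *Stag1*-/- (log2 fold change -1.80, edgeR adjusted p = 0.00284) and in *Stag2*-/- (-2.03, edgeR adjusted p = 0.00128). Among the other neighbours the lowest estimates were *Kit* near *Pdgfra* in *Stag1*-/- (-1.56) and *Thbd* near *Foxa2* in *Stag2*-/- (-1.02). In *Stag2*-/- siStag1 the lowest was *Kdr* near *Pdgfra* (-2.05). *Vim*, named above, lies within 1 Mb of *Cubn*. *Gata6*, *Sox17*, *Pdgfra*, *Dab2* and *Cubn* each overlap an annotated transcript on the opposite strand that has no count of its own in the deposited tables. Since the strand setting of the counting is not given in the sources used here, reads from such transcripts cannot be told apart from those of the gene.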

How the data were processed

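PolyA RNA-seq was analysed in 15 libraries of mESCs, 3 in each of 5 conditions named by the sample titles. Raw counts per gene were deposited by the authors, who used STAR on 150 bp read pairs and the mm10 genome. The counting tool, annotation and strand setting are not given in the sources used here. Lines that name no gene, 4 in each table with 19.78 to 23.43% of its total, were left out.

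The two-sided quasi-likelihood test of edgeR 4.0.16 (R 4.3.3) was applied to the counts after TMM scaling. Genes entered by filterByExpr within conditions, at a minimum count of 10 and a total of 15. Each condition had 1 coefficient in 1 fit of all 15 libraries, p-values were adjusted by Benjamini-Hochberg over the 14508 genes tested, and the threshold was 0.1. The SE is the size of the log2 fold change over the root of F. Normalized counts are TMM-scaled counts at a common depth of 17373740. The smallest level taken as detectable, 3 counts, is 0.157 to 0.200 CPM, which covers counting error only. The script was tested on simulated counts.

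The 9 genes, the marker lists and the tests were chosen with earlier results of these data known. A gene of the wider endoderm list is not reported here and was left out of its counts. Besides the 9 genes, *Stag1* and *Stag2*, genes were named where they were the called genes of a list with the largest log2 fold changes, at most 3 in each direction and comparison, where a defining marker was at 0, where they lie within 1 Mb, or where they are the 3 genes most like *Gata6* or *Sox17*. *Lrp2* against wild type, *Apoe*, *Trf*, the untested visceral endoderm genes, genes given for the replicate block and those carrying a marker sum were named after their values were seen. The alternatives were DESeq2 1.42.0, its size factors within edgeR, raw library sizes, a fit without the expression filter, a filter of 10 counts in all libraries, fits of the compared libraries alone, a threshold of 0.05, a replicate block, and the omission of each library. Replicate numbers were taken to pair the libraries of a comparison where each same-numbered pair had a correlation of deviations from the condition means above 0.1, a hint from the data since no label ties the numbers. This held in 6 of 8 comparisons (0.121 to 0.750). It did not hold for *Stag2*-/- siStag1 against wild-type siGLO (lowest 0.0485) or the difference between siStag1 effects (lowest -0.087). Positions are from GENCODE M21 (mm10). Plots used matplotlib 3.10.9 (Python 3.11.15).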

Additional observations from a re-analysis of the deposited data

Results flagged for a closer look

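The effects of the knockouts differed by a test of the difference itself, edgeR's comparison of *Stag1*-/- siGLO with *Stag2*-/- siGLO, at 6 of the 9 primitive endoderm genes. Of all genes tested, 12.9% were called lower and 12.7% higher in this comparison. The log2 fold change of *Stag1*-/- over *Stag2*-/- was -1.79 for *Cubn*, -1.49 for *Pdgfra*, -1.48 for *Dab2*, -1.38 for *Sox17*, -1.22 for *Sox7* and -1.15 for *Gata6*, so all 6 were lower in *Stag1*-/- cells. The differences at *Sox17* and *Gata6* were not called without *Stag2*-/- siGLO replicate 1 (-0.74 and -0.47). *Sox17* was also not called without *Stag1*-/- siGLO replicate 1 (-1.15), nor *Gata6* without *Stag1*-/- siGLO replicate 2 (-1.04) or replicate 3 (-0.94). With 1 clone per genotype, genotype and clone cannot be told apart. Groups of 3 were not examined for outlying libraries.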

How the results depend on the processing

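All 9 genes remained called lower in *Stag1*-/- siGLO, *Stag2*-/- siGLO and *Stag2*-/- siStag1 against wild-type siGLO, and in *Stag1*-/- siGLO against wild-type siStag1, under every alternative run except a filter of 10 counts in every library, which removed *Foxa2* and left the other 8 called lower in all of these, with log2 fold changes from -4.92 to -1.56. Against *Stag2*-/- siGLO, siStag1 gave 0 called genes of the 9, 1 with DESeq2, 1 with the replicate block, and 0 to 1 with a library left out, the called gene being *Pdgfra* each time. Between the knockouts 6 genes were lower in *Stag1*-/- and 0 higher, and the lower ones ran from 4 to 7. The lowest count, 4 lower and 1 higher (*Lama1*), was without *Stag2*-/- siGLO replicate 1, and the highest, with *Foxa2*, without replicate 3. The replicate block gave 9 called genes in each of the 3 clone conditions against wild-type siGLO and in *Stag1*-/- siGLO against wild-type siStag1, 0 in wild-type siStag1, 1 (*Pdgfra*) within *Stag2*-/- cells, 0 for the difference between siStag1 effects and 7 between the knockouts, the 7 being 6 lower and *Lama1* higher (0.33, edgeR adjusted p = 0.0745), and changed no other call of the 9 genes. In the gene lists the block lost no call. Over all pairs of conditions 27 of 30 same-numbered pairs correlated above 0.1 (lowest -0.087), and a library correlated best with its own number in 49 of 60 cases. *Gata6* between the knockouts was not called with only those libraries fitted (edgeR adjusted p = 0.116) or at a threshold of 0.05.

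Estimates that were not called changed sign with a library left out, and the cause was not tested. In wild-type siStag1 this was *Sox7* (-0.20 to 0.09). Within *Stag2*-/- cells siStag1 gave -0.68 to 0.40 for *Gata6*, -0.12 to 0.49 for *Sox7*, -0.66 to 0.40 for *Sox17*, -0.081 to 0.91 for *Foxa2*, -0.073 to 0.50 for *Cubn* and -0.37 to 0.038 for *Lama1*. The difference between siStag1 effects gave -0.89 to 0.19 for *Gata6*, -0.055 to 0.55 for *Sox7*, -0.53 to 0.53 for *Sox17* and -0.19 to 0.22 for *Lama1*. *Foxa2* had 3 to 25 raw counts in the clones, which limits its precision.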
